A study of Mus musculus with 10 samples.

Results

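Transcripts of the 4 thrombospondin genes Thbs1, Thbs2, Thbs3 and Thbs4, and of Comp, which encodes cartilage oligomeric matrix protein, were followed through 10 mouse melanoma tumors. These 5 genes were chosen by symbol from 29890 listed genes, and all 5 were listed. The tumors grew from cells of the mouse melanoma line B2905-M4, implanted under the skin of female C57BL/6J mice aged 7 to 8 weeks. The cells overexpressed Adamts7 in 5 tumors, called Adamts7 tumors here, and a vector in 5 tumors, called Vec tumors, with numbers as in the titles. One bulk RNA library was made from each tumor, none received immunotherapy, and the labels name no other allele in hosts or cells. Adamts7 tumors grew faster, and the design text gives harvest on day 35 for 2 Adamts7 tumors, on day 45 for 3 of each group and on day 50 for 2 Vec tumors, with no day tied to a tumor. Harvest day and growth therefore cannot be told apart from the group. Which promoter drove the overexpression, and whether the cells were a clone or a pool, was not found in the sources used here.

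Thrombospondins are secreted, calcium-binding glycoproteins that link cell surface receptors to the extracellular matrix. Thrombospondins 1 and 2 assemble as trimers and carry properdin-like repeats, through which they bind CD36 on endothelial cells and oppose the growth of blood vessels. Thrombospondins 3 and 4 and COMP assemble as pentamers without those repeats and are known from tendon, cartilage, muscle and bone. ADAMTS7 is a secreted metalloproteinase that has been reported to cleave COMP and thrombospondin 1. Cleavage acts on protein, so the transcript levels below do not measure it. In a bulk tumor, fewer cells of a type and less RNA per cell cannot be told apart.

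Levels are in TPM, the share of a library's transcripts after scaling for gene length. This unit keeps no read depth, so depth is unknown and no counting interval is given. A gene was tested where it averaged 1 TPM or more over the 10 tumors, which 15276 genes did. Of the 5 genes, 4 passed and Comp, at a mean of 0.267 TPM, did not. A gene is called where limma, run on log2(TPM + 1) over all tested genes, gives a Benjamini-Hochberg adjusted p under 0.05. Log2 fold changes are Adamts7 over Vec and use log2(TPM + 1), so those of low genes come out too small. Their median over all tested genes was -0.10.

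Adamts7 tumors 1 to 4 held 88.5, 96.0, 78.2 and 74.8 TPM of Adamts7 itself, the tumor labelled Adamts7 5 held 18.2 TPM, and Vec tumors 1 to 5 held 6.49, 6.98, 28.3, 8.57 and 27.6 TPM. The tumor labelled Adamts7 5 thus lay below Vec tumors 3 and 5, against its label, and every direction below takes the labels as given. Vec tumors 3 and 5 also stood apart in their RNA. Over 7 melanocyte lineage markers they summed to 312 and 1909 TPM, while the other tumors lay between 8375 and 22967 TPM. Over 8 macrophage markers they summed to 5482 and 5931 TPM, while no other tumor passed 2024 TPM. Fold changes of the members are given with and without these 3 tumors, and those of other genes named by role with and without Vec tumors 3 and 5.

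Thbs2 and Thbs1 made up most of the family's transcripts, and Comp the least in every tumor. Thbs2 was the highest member in 4 of 5 Adamts7 tumors and in 3 of 5 Vec tumors. In the remaining 3 tumors, Adamts7 tumor 3 and Vec tumors 3 and 5, Thbs1 was the highest. Both stood above Thbs3, Thbs4 and Comp in all 10 tumors. Thbs4 was above Thbs3 in 5 of 5 Adamts7 tumors and in 3 of 5 Vec tumors. The neighbours in this order that changed places between tumors were thus Thbs1 with Thbs2, and Thbs3 with Thbs4.

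**Figure D1:**
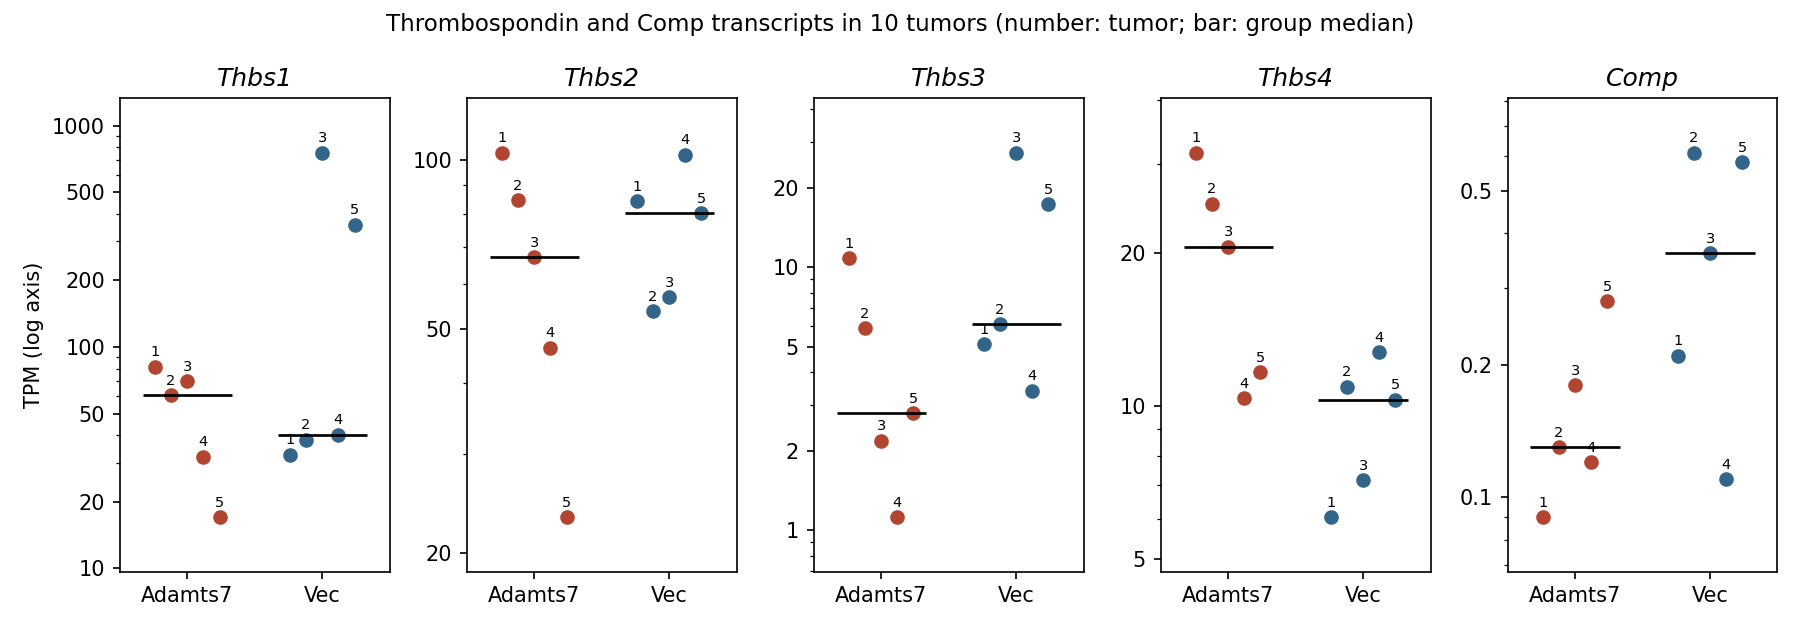
TPM of each gene on a log axis in the 5 Adamts7 tumors (left of each panel) and the 5 Vec tumors (right), numbered as in the labels, with a bar at the group median. Vec tumors 3 and 5 lie far above the rest for Thbs1, at 755 and 358 TPM, while Adamts7 tumors 1 to 3 lie above every Vec tumor for Thbs4.

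The 5 genes summed to 227, 176, 160 and 89.8 TPM in Adamts7 tumors 1 to 4, to 54.9 TPM in the tumor labelled Adamts7 5, and to 128, 110, 847, 159 and 466 TPM in Vec tumors 1 to 5. The groups overlapped, and Vec tumors 3 and 5 were the highest. Among Adamts7 tumors Thbs1 took between 31.0% and 43.9% of the sum and Thbs2 between 41.8% and 51.5%. Among Vec tumors the same shares ran from 25.4% to 89.2% for Thbs1 and from 6.72% to 65.7% for Thbs2. Thbs4 took between 11.5% and 21.3% of the sum in Adamts7 tumors and between 0.845% and 9.97% in Vec tumors, so the groups did not overlap in this share. A share falls when another member is higher, and the lowest shares of Thbs4, 0.845% and 2.21%, were in Vec tumors 3 and 5 with their high Thbs1. Among the other 3 Vec tumors the lowest share of Thbs4 was 4.71%. Shares of Thbs3 ran from 1.25% to 5.06% in Adamts7 tumors and from 2.14% to 5.56% in Vec tumors.

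**Figure D2:**
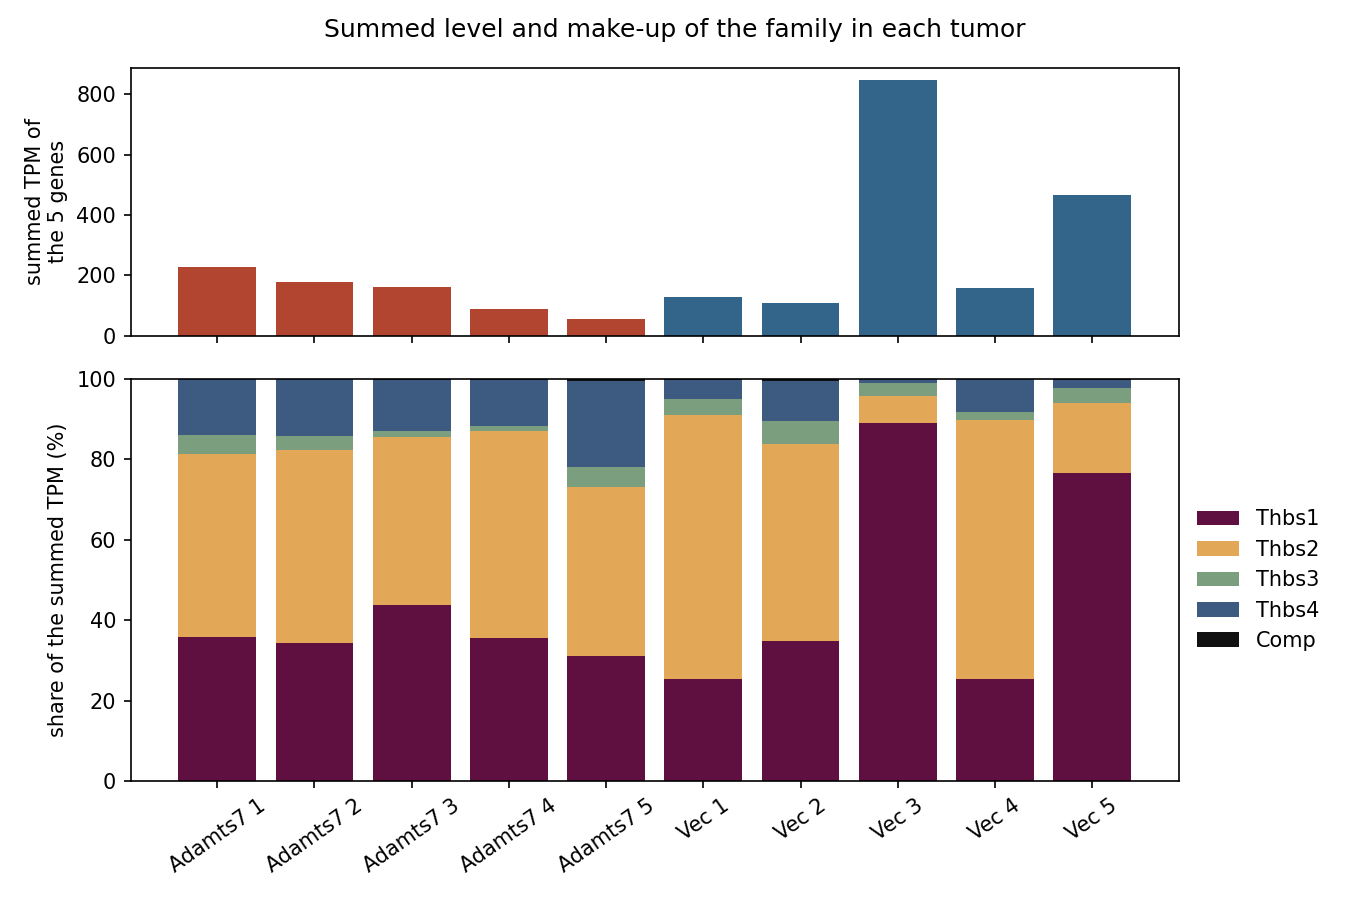
Upper bars give the summed TPM of the 5 genes in each tumor and lower bars the share of each gene in that sum in percent, with Adamts7 tumors on the left and Vec tumors on the right, named as labelled. Thbs1 fills 89.2% and 76.7% of the bar in Vec tumors 3 and 5, and the Thbs4 band is at least 11.5% in every Adamts7 tumor and at most 9.97% in every Vec tumor.

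Of the 4 tested members, 0 were called by limma as higher and 0 as lower. Of the 15276 tested genes 0.223% were called, 0.0262% as higher and 0.196% as lower. Without adjustment 1 member, Thbs4, had a limma p under 0.05, as did 20.2% of all tested genes. The level of each of the 5 members overlapped between the groups. Non-overlapping levels were found for 1.11% of the tested genes with Adamts7 tumors higher and for 3.78% with Adamts7 tumors lower. Of the 5 members, 1 had an adjusted p under 0.05 in the authors' deposited table, Thbs4, as higher. The authors' deposited table called 7.96% of its genes, 2.48% as higher and 5.48% as lower.

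Thbs4 encodes thrombospondin 4, a pentameric thrombospondin of tendon and muscle. Adamts7 tumors 1 to 4 held 31.5, 25.0, 20.6 and 10.4 TPM of Thbs4, the tumor labelled Adamts7 5 held 11.7 TPM, and Vec tumors 1 to 5 held 6.05, 10.9, 7.16, 12.8 and 10.3 TPM. Adamts7 tumors 1 to 3 were above all Vec tumors, and the other two Adamts7 tumors lay inside the Vec range. All 5 Adamts7 tumors were above the Vec median of 10.29 TPM. The means were 19.8 ± 8.94 TPM in Adamts7 tumors and 9.44 ± 2.77 TPM in Vec tumors (SD, n = 5 each), a ratio of 2.10. The log2 fold change of 0.92 (SE 0.31) missed the threshold, at a limma adjusted p of 0.164. Permuting the tumors for Thbs4 alone gave an exact two-sided p of 0.0476, not adjusted for the 5 members examined this way. With 1 tumor left out that exact permutation p ran from 0.0159 to 0.0873, and it was above 0.05 in 7 of 10 fits: those without Adamts7 tumor 1, 2 or 3 and those without Vec tumor 1, 2, 3 or 5. In the authors' deposited table Thbs4 had a log2 fold change of 1.17 (SE 0.33) and an adjusted p of 0.0118.

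The sign of Thbs4 was the same without the tumors that stood apart. Without Vec tumors 3 and 5 its log2 fold change was 0.87 (SE 0.39; limma adjusted p = 0.404). Leaving out the tumor labelled Adamts7 5 as well gave 1.02 (SE 0.38; limma adjusted p = 0.160). With 3 tumors of each group taken as those of day 45, in all 100 ways, the difference in mean log2(TPM + 1) of Thbs4 lay between 0.25 and 1.60. Vec tumor 4, the Vec tumor with most Thbs4, also held skeletal muscle transcripts, with 507 TPM over 8 markers, while no other tumor passed 10.8 TPM. Without Vec tumor 4 the log2 fold change of Thbs4 was 1.04.

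Thbs3 encodes a pentameric thrombospondin known from skeletal maturation in mice. Adamts7 tumors 1 to 4 held 10.8, 5.87, 2.19 and 1.12 TPM of Thbs3, the tumor labelled Adamts7 5 held 2.78 TPM, and Vec tumors 1 to 5 held 5.11, 6.09, 27.3, 3.40 and 17.4 TPM. The highest values were in Vec tumors 3 and 5, and 3 Adamts7 tumors lay below the lowest Vec tumor. The means were 4.56 ± 3.92 TPM in Adamts7 tumors and 11.9 ± 10.3 TPM in Vec tumors (SD, n = 5 each). The log2 fold change was -1.12 (SE 0.59), with a limma adjusted p of 0.303 and an exact two-sided permutation p of 0.135. Without Vec tumors 3 and 5 it was -0.32 (SE 0.52; limma adjusted p = 0.841), and with the tumor labelled Adamts7 5 dropped as well -0.25. In the authors' deposited table Thbs3 had a log2 fold change of -1.28 (SE 0.65) and an adjusted p of 0.216.

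The promoters of Thbs3 and Thbs4 are shown because these pentameric members had log2 fold changes of opposite sign, though limma called neither. Thbs3 was highest in Vec tumors 3 and 5, and Thbs4 in Adamts7 tumors 1 to 3. Adamts7 tumor 1 was also the highest Adamts7 tumor for Thbs3, at 10.8 TPM. Both promoters come from RefSeq on build GRCm38.p6, whereas the submitters' processing notes name mm39 for the expression values. Each runs from 250 bases before the start of the gene to 50 after it, 5′ to 3′ on the strand of the gene. The Thbs3 promoter is chr3:89214930-89215229 on the plus strand and the Thbs4 promoter chr13:92794769-92795068 on the minus strand. Capitals mark GC boxes, spelled GGGCGG on this strand or on the other one. They also mark CCAAT boxes, spelled CCAAT on this strand or on the other one.
Thbs3: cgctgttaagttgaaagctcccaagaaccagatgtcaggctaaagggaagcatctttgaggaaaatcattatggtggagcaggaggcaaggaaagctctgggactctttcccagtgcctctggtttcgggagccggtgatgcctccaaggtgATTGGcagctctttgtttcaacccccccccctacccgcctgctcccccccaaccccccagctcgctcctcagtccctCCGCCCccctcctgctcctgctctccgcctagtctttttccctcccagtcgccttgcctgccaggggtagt
Thbs4: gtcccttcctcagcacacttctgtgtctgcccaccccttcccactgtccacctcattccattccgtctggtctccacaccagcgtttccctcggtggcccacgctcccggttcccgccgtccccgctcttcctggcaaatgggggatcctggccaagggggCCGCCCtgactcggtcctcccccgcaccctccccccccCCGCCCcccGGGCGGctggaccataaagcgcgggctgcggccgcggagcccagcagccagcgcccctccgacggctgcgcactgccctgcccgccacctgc

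The Thbs4 promoter held 3 GC boxes and no CCAAT box, at 72.0% G and C, and the Thbs3 promoter held 1 of each, at 59.0% G and C. A GC box was present in 35.7% and a CCAAT box in 37.4% of all 32851 promoters of this length, whose median G and C content was 52.7%. The TATA box, spelled TATAAA and searched on both strands, was found in 13.6% of all promoters. The AP-1 site, spelled TGANTCA, reads the same on both strands and was found in 7.81%. Neither was in these windows, and no marked motif overlaps another. These matches describe letters in these windows, and binding was not measured.

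Thbs1 encodes thrombospondin 1, an inhibitor of angiogenesis, a ligand of CD47 and an activator of latent transforming growth factor beta (TGF-beta). Adamts7 tumors 1 to 4 held 81.4, 60.7, 70.3 and 31.9 TPM of Thbs1, the tumor labelled Adamts7 5 held 17.0 TPM, and Vec tumors 1 to 5 held 32.6, 38.2, 755, 40.2 and 358 TPM. Vec tumors 3 and 5 were far above the other 8 tumors, and Adamts7 tumors 1 to 3 were above the other 3 Vec tumors. The means were 52.3 ± 26.9 TPM in Adamts7 tumors and 245 ± 317 TPM in Vec tumors (SD, n = 5 each), while the medians stood the other way, at 60.7 TPM in Adamts7 tumors and 40.2 TPM in Vec tumors. The log2 fold change was -1.22 (SE 0.89), with a limma adjusted p of 0.435 and an exact two-sided permutation p of 0.294. Without Vec tumors 3 and 5 the sign turned, to 0.29 (SE 0.46; limma adjusted p = 0.837). Leaving out the tumor labelled Adamts7 5 too gave 0.63 (SE 0.29; limma adjusted p = 0.243). In the authors' deposited table Thbs1 had a log2 fold change of -2.11 (SE 0.79) and an adjusted p of 0.0726.

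Thbs2 encodes thrombospondin 2, the other trimeric member, which is made largely by fibroblasts and affects collagen fibril assembly. For Thbs2, Adamts7 tumors 1 to 4 held 103, 84.8, 67.0 and 46.3 TPM, the tumor labelled Adamts7 5 held 23.1 TPM, and Vec tumors 1 to 5 held 84.4, 53.7, 56.9, 102 and 80.2 TPM. The highest tumors of the groups were at nearly the same level, and the lowest 2 tumors of all were Adamts7 tumors. The means were 64.8 ± 31.3 TPM in Adamts7 tumors and 75.4 ± 20.2 TPM in Vec tumors (SD, n = 5 each). The log2 fold change was -0.34 (SE 0.36), with a limma adjusted p of 0.591 and an exact two-sided permutation p of 0.508. It was -0.42 without Vec tumors 3 and 5, -0.10 when the tumor labelled Adamts7 5 was dropped as well, and -0.02 when that tumor alone was dropped. Vec tumors 3 and 5 were not apart in Thbs2. Across all tumors the highest level was 4.45 times the lowest for Thbs2 and 44.3 times the lowest for Thbs1.

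Comp was low in every tumor, and its mean was above that of 35.5% of the listed genes, while the mean of Thbs1 was above that of 96.5%. For Comp, Adamts7 tumors 1 to 4 held 0.090, 0.13, 0.18 and 0.12 TPM, the tumor labelled Adamts7 5 held 0.28 TPM, and Vec tumors 1 to 5 held 0.21, 0.61, 0.36, 0.11 and 0.58 TPM. All Adamts7 tumors were below the Vec median of 0.36 TPM, and Vec tumor 4 was lower than 4 of them. The means were 0.16 ± 0.0745 TPM in Adamts7 tumors and 0.374 ± 0.221 TPM in Vec tumors (SD, n = 5 each). The difference was -0.23 on the log2(TPM + 1) scale, with an exact two-sided permutation p of 0.0873. Without Vec tumor 4 it was -0.30, with an exact permutation p of 0.0238, while the other 9 fits with 1 tumor left out gave an exact p above 0.05. It was -0.16 without Vec tumors 3 and 5 and -0.20 with the tumor labelled Adamts7 5 dropped as well. In the authors' deposited table Comp had a mean normalized signal of 5.59, a log2 fold change of -0.99 and an adjusted p of 0.374.

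**Figure D3:**
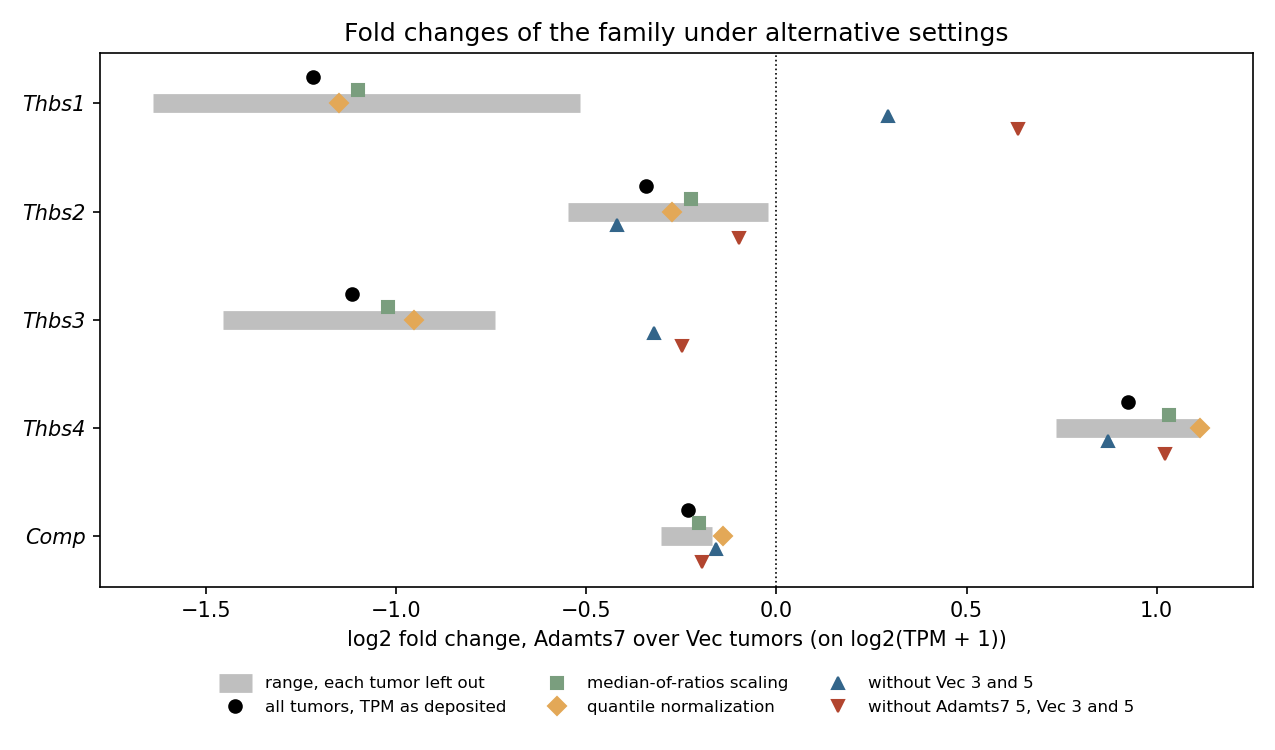
Log2 fold change of each gene, Adamts7 over Vec tumors, on the log2(TPM + 1) scale. The black point uses all 10 tumors, the other symbols other scalings or fewer tumors (the red triangle also leaves out the tumor labelled Adamts7 5), and the grey bar spans the 10 fits with 1 tumor left out. Thbs4 is above 0 for every symbol, while Thbs1 moves from -1.22 to 0.29 and 0.63 when Vec tumors 3 and 5 are left out.

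The members also differed in how they moved with each other. Thbs1 and Thbs3 had a Pearson r of 0.85 over 10 tumors and 0.45 over the 8 other than Vec tumors 3 and 5. Thbs1 and Thbs2 had 0.30 over 10 tumors and 0.77 over the 8, and Thbs1 and Thbs4 had -0.13 over 10 tumors and 0.76 over the 8. Thbs1, Thbs2 and Thbs4 were all higher in Adamts7 tumors 1 to 3 than in Adamts7 tumor 4 and the tumor labelled Adamts7 5. These and the correlations below are descriptions of log2(TPM + 1) values, and the tumors share TPM scaling within each library.

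Genes that act with the thrombospondins were examined as lists chosen by role. Among 14 receptors and uptake genes, limma called 1 as lower and 0 as higher. Of all tested genes 0.196% were called as lower and 0.0262% as higher. Of the list's log2 fold changes 11 were negative and 3 positive, and 2 genes had an unadjusted limma p under 0.05 as lower. Among all tested genes 20.2% had such a p in either direction. The list's median log2 fold change was -0.11, or -0.26 without Vec tumors 3 and 5. The gene called was Cd36, the scavenger receptor that binds thrombospondins 1 and 2. Cd36 was at 4.14 ± 1.00 TPM in Adamts7 tumors and 14.4 ± 5.05 TPM in Vec tumors (SD, n = 5 each), without overlap. Among all tested genes 3.78% did not overlap with Adamts7 tumors lower. For Cd36 the log2 fold change was -1.55 (SE 0.22; limma adjusted p = 0.0288). The call was lost without Adamts7 tumor 2, 3 or 4 and without Vec tumor 4 or 5, with limma adjusted p from 0.0830 to 0.122, and also without Vec tumors 3 and 5 together (log2 fold change -1.35; limma adjusted p = 0.0513). With no filter on low values the limma adjusted p of Cd36 was 0.0749, and over all 10 fits with 1 tumor left out its log2 fold change ran from -1.67 to -1.38. Cd47, the receptor for the carboxyl end of thrombospondin 1, was at 64.4 ± 13.5 TPM in Adamts7 tumors and 110 ± 32.1 TPM in Vec tumors (limma, adjusted p = 0.134), with a log2 fold change of -0.74, or -0.46 without Vec tumors 3 and 5. Itga6, an integrin subunit gene, had a log2 fold change of -0.54 (limma, adjusted p = 0.252), or -0.24 without those tumors. The integrin subunit gene Itgb3 averaged 33.1 TPM in Adamts7 tumors and 33.7 TPM in Vec tumors 1, 2 and 4, but was at 7.50 and 10.2 TPM in Vec tumors 3 and 5. Its log2 fold change was 0.63 with all tumors (limma, adjusted p = 0.432) and turned to -0.09 without those 2.

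Of the proteases reported to cut thrombospondins or COMP, 8 were tested and limma called 0. An unadjusted p under 0.05 was found for 3, Adamts7 itself, Adamts1 and Adamts5, beside 20.2% of all tested genes. The proteases' median log2 fold change was -0.49, and without Vec tumors 3 and 5 its sign turned, to 0.09. Adamts7 is on this list, with a log2 fold change of 2.21 (SE 0.54; limma adjusted p = 0.104), or 2.93 without those Vec tumors. Adamts1, which cleaves both trimeric thrombospondins, was at 274 ± 63.2 TPM in Adamts7 tumors and 666 ± 312 TPM in Vec tumors (limma, adjusted p = 0.0953), with a log2 fold change of -1.20, or -0.95 without Vec tumors 3 and 5. Adamts5, an aggrecanase, was at 4.97 ± 0.855 TPM in Adamts7 tumors and 20.8 ± 18.0 TPM in Vec tumors (limma, adjusted p = 0.167), where Vec tumors 3 and 5 held 45.2 and 34.9 TPM and the other 3 averaged 7.94 TPM. For Adamts5 the log2 fold change was -1.46, or -0.57 without Vec tumors 3 and 5. Neither Adamts1 nor Adamts5 overlapped between the groups, as was so for 3.78% of all tested genes with Adamts7 tumors lower. Mmp9, a gelatinase, averaged 1.35 TPM in Adamts7 tumors and 0.987 TPM in Vec tumors 1, 2 and 4, but was at 12.98 and 22.0 TPM in Vec tumors 3 and 5. Its log2 fold change was -1.07 with all tumors (limma, adjusted p = 0.396) and turned to 0.20 without those 2.

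Other reported ADAMTS7 substrates gave 0 limma calls among 6 tested genes, and 0 had an unadjusted p under 0.05, beside 20.2% of all tested genes. Their median log2 fold change was 0.09, or 0.13 without Vec tumors 3 and 5. Ccn2, a matricellular growth factor, was at 24.2 ± 12.8 TPM in Adamts7 tumors and 14.7 ± 7.77 TPM in Vec tumors (limma, adjusted p = 0.343), with a log2 fold change of 0.68, or 0.31 without those tumors. Efemp1, which encodes fibulin 3, was at 2.65 ± 1.81 TPM in Adamts7 tumors and 8.34 ± 6.92 TPM in Vec tumors (limma, adjusted p = 0.311), where Vec tumors 3 and 5 held 16.0 and 15.4 TPM and the other 3 averaged 3.44 TPM. The log2 fold change of Efemp1 was -1.09, or -0.25 without those tumors. Timp1, a metalloproteinase inhibitor, and Ltbp3, a latent TGF-beta binding protein, had log2 fold changes of 0.32 and -0.12 (limma, adjusted p = 0.709 and 0.767), or 0.86 and -0.33 without those tumors.

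Of 13 genes for TGF-beta, its receptors and its early response, limma called 0, and 4 log2 fold changes were positive. An unadjusted p under 0.05 was found for 3, beside 20.2% of all tested genes. The list's median log2 fold change was -0.29, or -0.13 without Vec tumors 3 and 5. Smad7, a feedback inhibitor, and Skil, a repressor of SMAD proteins, had log2 fold changes of -0.80 and -0.71 (limma, adjusted p = 0.174 and 0.180), or -0.63 and -0.40 without those tumors. Tgfb2 and the receptor gene Tgfbr2 were at -0.50 and -0.29 (limma, adjusted p = 0.285 and 0.243), or -0.26 and -0.48 without them.

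Cartilage and tendon matrix genes, the usual company of COMP, gave 0 limma calls among 10 tested of 17. An unadjusted p under 0.05 was found for 4, beside 20.2% of all tested genes. Of the 10 log2 fold changes 8 were negative, and the median was -0.98, or -0.24 without Vec tumors 3 and 5. Matn2, which encodes matrilin 2, was at 31.5 ± 13.03 TPM in Adamts7 tumors and 94.0 ± 34.8 TPM in Vec tumors (SD, n = 5 each), without overlap (limma, adjusted p = 0.0606). Such a lack of overlap, with Adamts7 tumors lower, was found for 3.78% of all tested genes. For Matn2 the log2 fold change was -1.56, or -1.69 without Vec tumors 3 and 5. The proteoglycan gene Acan did not exceed 0.090 TPM in an Adamts7 tumor and lay between 0.21 and 32.7 TPM in Vec tumors, highest in Vec tumor 5. Its log2 fold change was -1.93 (limma, adjusted p = 0.224), or -0.52 without those tumors. Col11a1, a cartilage collagen, and Fmod, a collagen-binding proteoglycan of tendon, had log2 fold changes of -1.49 and -1.84 (limma, adjusted p = 0.163 and 0.208), or -0.79 and -0.62 without those tumors. Both were highest in Vec tumor 3, at 40.6 and 82.6 TPM.

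Of the genes listed for angiogenesis, a process that thrombospondin 1 opposes, 10 were tested and limma called 0. An unadjusted p under 0.05 was found for 2, beside 20.2% of all tested genes. The list's median log2 fold change was -0.21, or -0.12 without Vec tumors 3 and 5. Apln, the endothelial peptide apelin, was at 39.99 ± 11.1 TPM in Adamts7 tumors and 19.7 ± 5.71 TPM in Vec tumors, without overlap (limma, adjusted p = 0.104). Such a lack of overlap, with Adamts7 tumors higher, was found for 1.11% of all tested genes. For Apln the log2 fold change was 0.99, or 0.70 without those tumors. Vegfb averaged 122 TPM in Adamts7 tumors and 111 TPM in Vec tumors 1, 2 and 4, and was at 26.6 and 34.2 TPM in Vec tumors 3 and 5. The log2 fold change of Vegfb, 0.89 (limma, adjusted p = 0.259), was 0.17 without those 2. The receptor genes Kdr and Tek had log2 fold changes of -0.36 and -0.65 (limma, adjusted p = 0.331 and 0.232), or -0.33 and -0.44 without them.

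Marker levels of several cell types varied with members of the family from tumor to tumor, and their part in the values above was not tested. Over all 10 tumors, Thbs1 had a Pearson r of 0.96 with the summed macrophage markers and -0.87 with the summed melanocyte markers. It also had 0.95 with neutrophil, 0.90 with T cell, 0.90 with keratinocyte, 0.89 with platelet and megakaryocyte and 0.74 with fibroblast markers. With the remaining lists its r lay between -0.36 and 0.62. Over the 8 tumors other than Vec tumors 3 and 5, Thbs1 had 0.92 with fibroblast, 0.90 with macrophage and 0.83 with neutrophil markers. It had 0.77 with platelet and megakaryocyte, 0.73 with endothelial and 0.65 with pericyte and smooth muscle markers. It had 0.31 with T cell, 0.29 with melanocyte and 0.19 with keratinocyte markers, and between -0.30 and 0.06 with the remaining lists. The 8 fibroblast markers summed to between 777.5 and 1972 TPM in Adamts7 tumors and between 1177 and 1949 TPM in Vec tumors, lowest in the tumor labelled Adamts7 5. Thbs2 had a Pearson r of 0.76 with that sum over 10 tumors and 0.89 over the 8. Over the 8, Thbs2 also had 0.87 with neutrophil, 0.76 with macrophage and 0.74 with endothelial markers. Over 10 tumors those were 0.47, 0.41 and 0.71. Thbs4 had 0.30 with fibroblast markers over 10 tumors and 0.63 over the 8. Its largest over the 8 were 0.82 with platelet and megakaryocyte markers and 0.80 with pericyte and smooth muscle markers. Over 10 tumors those were 0.17 and 0.40. Over 10 tumors Thbs3 had 0.89 with T cell, 0.88 with macrophage, 0.84 with platelet and megakaryocyte and -0.79 with melanocyte markers. Over the 8 those were 0.68, 0.63, 0.60 and -0.13. Thbs3 also had 0.82 with keratinocyte, 0.79 with neutrophil and 0.74 with fibroblast markers over 10 tumors. Over the 8 those were 0.29, 0.36 and 0.69. With the remaining lists the r of Thbs3 over 10 tumors lay between -0.15 and 0.66. Comp had an r between -0.45 and 0.62 with each of the 12 sums over 10 tumors.

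**Figure D4:**
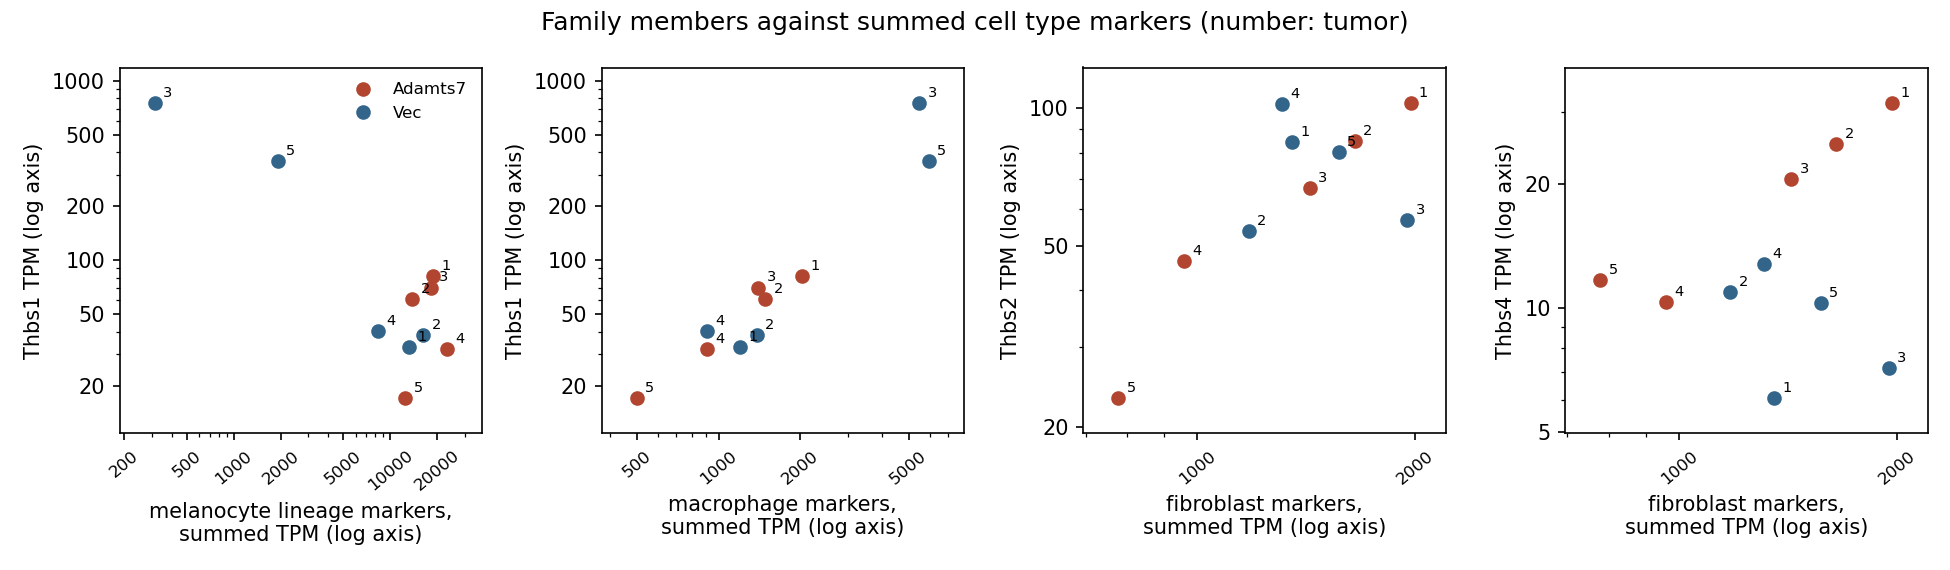
TPM of a family member against the summed TPM of a marker list, both on log axes, for Adamts7 and Vec tumors, numbered as in the labels. In the first 2 panels Vec tumors 3 and 5 lie apart at 312 and 1909 TPM of melanocyte markers and at 5482 and 5931 TPM of macrophage markers, and the last 2 panels plot Thbs2 and Thbs4 against fibroblast markers.

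Endothelial markers summed to between 130 and 267 TPM in Adamts7 tumors and between 215 and 291 TPM in Vec tumors. Pericyte and smooth muscle markers summed to between 51.1 and 112 TPM in Adamts7 tumors and between 55.9 and 140 TPM in Vec tumors. Platelet and megakaryocyte markers lay between 16.7 and 83.2 TPM in Adamts7 tumors and between 16.6 and 150 TPM in Vec tumors. Most of that sum was Pf4, which macrophages can also express, while the platelet gene Ppbp did not exceed 0.94 TPM in any tumor. T cell markers summed to between 20.0 and 46.7 TPM in Adamts7 tumors and between 44.9 and 401 TPM in Vec tumors, with 401 and 302 TPM in Vec tumors 3 and 5 and at most 63.2 TPM in the other 3. All 8 T cell markers had an unadjusted limma p under 0.05 as lower, and 5 did without Vec tumors 3 and 5. Of all tested genes 20.2% had such a p in either direction, and 12.5% without those 2 tumors. Neutrophil and keratinocyte markers summed to at most 22.8 and 4.51 TPM in any tumor. Krt5, a defining keratinocyte gene, was listed at 0 in all 5 Adamts7 tumors and did not exceed 0.1 TPM in a Vec tumor. Adipocyte markers reached 20.7 TPM in Adamts7 tumors and 171 TPM in Vec tumors. Adipoq and Plin1 did not exceed 3.36 and 2.56 TPM in any tumor, and most of that sum came from another marker of the list. Schwann cell markers reached 264 TPM in Adamts7 tumors and 417 TPM in Vec tumors. Over the 12 lists limma called 0 markers in either direction. For mitochondrially encoded genes the median was 0.37 on the log2 scale over 10 tested genes, of which limma called 0 and 6 had an unadjusted p under 0.05 as higher.

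For each member the closest 3 companions were taken from 12649 other tested genes by Pearson r over the 10 tumors. Predicted genes, pseudogenes and clone names were left out. The r values below are the highest of 12649 and are raised by that selection. For Thbs1 the companions were Zmynd15 (r = 0.99), Zfp365 (r = 0.99) and B3gnt8 (r = 0.98), with r of at least 0.93 over the 8 tumors other than Vec tumors 3 and 5. For Thbs2 they were Hbegf, a growth factor of the epidermal growth factor family, at r = 0.98, Nkd2, an inhibitor of Wnt signaling, at r = 0.96, and Gpr153 at r = 0.95. For Thbs3 they were Arap1, Lamb1, a laminin chain of basement membranes, and Acer3, each at r = 0.98. For Thbs4 they were Kcnk3, a potassium channel, at r = 0.94, Gchfr, the regulator of the first enzyme of tetrahydrobiopterin synthesis, at r = 0.93, and Vta1 at r = 0.90. Kcnk3 averaged 2.10 TPM in Adamts7 tumors and 0.248 TPM in Vec tumors, and Gchfr averaged 5.27 TPM in Adamts7 tumors and 1.79 TPM in Vec tumors (limma, adjusted p = 0.174 and 0.146). For Comp, which was below the filter at a mean of 0.267 TPM, they were Dusp12 (r = 0.91), Vamp8 (r = 0.89) and Lysmd2 (r = 0.87). No gene was among the closest 3 of more than 1 member. With so few genes taken from 12649, that says little about the members.

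Genes next to the members in the RefSeq order of GRCm38 were read as well, a choice made after the tumors' values had been seen. Mtx1, before Thbs3, was at 90.6 ± 8.17 TPM in Adamts7 tumors and 94.0 ± 21.4 TPM in Vec tumors (SD, n = 5 each), with 64.5 and 81.0 TPM in Vec tumors 3 and 5. Muc1, after Thbs3, was at 2.49 TPM in Vec tumor 3 and had a Pearson r with Thbs3 of 0.85 over 10 tumors and 0.64 over the 8 other than Vec tumors 3 and 5. Upf1, before Comp, was at 36.6 ± 4.68 TPM in Adamts7 tumors and 42.8 ± 4.87 TPM in Vec tumors, with an r with Comp of 0.75 over 10 tumors and 0.68 over the 8. RefSeq lists 1 entry that overlaps Thbs3 and 1 that overlaps Comp. Whether reads were counted by strand is not stated, so reads of overlapping genes cannot be told apart for these members. Rasgrp1, before Thbs1, was at 12.5 and 12.8 TPM in Vec tumors 3 and 5, with an r with Thbs1 of 0.93 over 10 tumors and 0.52 over the 8. The neighbours of Thbs4, Serinc5 and Mtx3, had log2 fold changes of 0.31 and -0.03 (limma, adjusted p = 0.446 and 0.956). Over 10 tumors Serinc5 and Mtx3 had an r with Thbs4 of 0.28 and -0.18. For the other neighbours r over 10 tumors was -0.43 for Mtx1 with Thbs3, -0.31 for Crtc1 with Comp and 0.17 for Fsip1 with Thbs1. With Thbs2 it was 0.28 for Smoc2 and -0.02 for Wdr27.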

How the data were processed

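Each tumor gave 1 library, and the authors deposited its expression per gene symbol as log2(TPM + 1). The submitters' processing notes name RSEM, DESeq2 and build mm39, with no versions. RSEM assigns reads shared by similar genes by estimate. Per the labels' protocols, poly(A) RNA was sequenced with spike-ins and molecular identifiers. Undone to TPM, the values summed to between 995286 and 998019 per tumor. In the comparison table the authors deposited a mean signal after normalization, log2 fold changes with standard errors, a test score and p-values for 30040 identifiers. A name table based on another build paired 28805 of them with symbols. Its direction was read from the expression values: 87.9% of 14493 shared genes had the same sign.

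The 15276 genes averaging 1 TPM or more were fitted with limma 3.58.1 in R 4.3.3, with group as its single term, a prior variance that follows the mean level, and 1 TPM added before taking logs. Permutation tests were exact and two-sided over all 252 arrangements of the tumors, and the smallest p they can give is 0.00794. The fit was tested on simulated data. Members and lists were chosen with earlier results of these data known. The genes named are the members, Adamts7, up to 4 of each role list by smallest p, the first 2 markers of cell type lists where helpful, and the closest 3 genes of each member. No pair of tumors had identical values. The labels give no separate cultures, so p-values measure the spread between these tumors. Alternatives covered pseudocounts, filters, scalings, variance models, weights, a replicate block and tumors left out. The repertoire table was not used here.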

Additional observations from a re-analysis of the deposited data

Results flagged for a closer look

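Among 48 groups of 5 tumors examined for a value far from its neighbours, 6 held one. The cutoff used gives about 1 in 20 only for independent values with a normal distribution. Shares of 1 sum are not independent, and the distribution of TPM was not tested, so no excess is read from this count. Adamts7 was lowest in the tumor labelled Adamts7 5, at 18.2 TPM. In the same tumor the shares of Thbs4 and Comp in the family's summed TPM were far above those of the other Adamts7 tumors, at 21.3% and 0.510%, while the sum itself was the lowest of all, at 54.9 TPM. The share of Comp was 0.557% in Vec tumor 2. Skeletal muscle markers summed to 507 TPM in Vec tumor 4, and T cell markers to 46.7 TPM in Adamts7 tumor 1.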

How the results depend on the processing

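Limma called 0 members with each tumor left out in turn (10 fits) and under the 11 other alternatives. With each tumor left out, log2 fold changes lay between -1.64 and -0.52 for Thbs1, between -0.55 and -0.02 for Thbs2, between -1.46 and -0.74 for Thbs3, between 0.74 and 1.11 for Thbs4 and between -0.30 and -0.17 for Comp. Thbs1 turned to 0.16 with array weights, to 0.29 without Vec tumors 3 and 5, and to 0.63 when the tumor labelled Adamts7 5 was dropped along with them. Among genes named by role, an alternative chosen after seeing the data, without Vec tumors 3 and 5, turned the sign of Itgb3 to -0.093 and of Mmp9 to 0.20. Over the 100 sets of day 45 differences lay between -2.75 and 0.91 for Thbs1, between -1.07 and 0.41 for Thbs2, between -2.39 and 0.23 for Thbs3, between 0.25 and 1.60 for Thbs4 and between -0.44 and -0.033 for Comp, and were below 0 in 93, 81, 98, 0 and 100 sets in that order. All genes called numbered 34, against 10 without a filter on low values, 1219 with array weights, 800 without the tumor labelled Adamts7 5 and Vec tumors 3 and 5, and between 6 and 655 with 1 tumor left out, the 655 being without the tumor labelled Adamts7 5. With the replicate block limma called 0 genes, while 3028 had an unadjusted p under 0.05. Same-numbered tumors correlated between -0.28 and 0.26 in their deviations from the group means, and differently numbered tumors between -0.36 and 0.34. So few same-numbered pairs cannot settle whether the numbers pair tumors. Median-of-ratios scaling and quantile normalization gave all genes a median of 0.01 and 0.04 and left each member's sign. Comp, below the filter, was left out of the stricter filter, the untrended prior, the array weights and the replicate block, and a pseudocount of 0.1 TPM gave it a difference of -0.76. Apart from the tumors removed, the cause was not tested. Read depth is unknown, and at 0.267 TPM on average Comp is low.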
